A study of Mus musculus with 18 samples.

Results

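Venular endothelial cells line the small vessels that drain the skin's capillaries. In these single-cell data they were chosen by their own transcripts: of 47251 cells that passed the filters in 10 libraries, 512 were counted as venular endothelial cells. A cell was a member if it had at least 3 UMIs (unique molecular identifiers, each a counted transcript) of Pecam1, Cdh5, Kdr, Flt1 and Emcn together from at least 2 of these genes, and at least 2 UMIs of Ackr1 and Selp together. It also had no Ptprc (the pan-leukocyte CD45), fewer than 2 UMIs of the lymphatic genes Prox1 and Mmrn1, and under 1% of its UMIs from Col1a1 and Col1a2. Of the 2659 cells that passed as blood endothelial, 2084 had no UMI of Ackr1 or Selp and served as the other blood endothelial cells. The levels of the genes used for choosing, Ackr1 and Selp above all, are given as a description and not tested.

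The skin came from mice in a tissue expansion experiment, in which stretch is applied by an implant under the skin. All mice had the surgery, an incision near the tail and a path opened under the skin towards the neck. In the expanded arm a hydrogel expander was then left in place, and in the control arm none was, so the controls are wounded skin and not untouched skin. Skin was taken on day 1, 2 or 4, digested, sorted for live cells and run as droplet 3′ single-cell libraries, with the mice of 1 arm and round pooled in 1 tube. Each arm had 5 libraries, from 2 sequencing rounds for day 1, 2 for day 2 and 1 for day 4. The control and expanded library of the same day and round form a pair, which gives 5 pairs. Strain, sex and age are not given in the sources used here. The replicates are libraries of pooled mice, and p-values measure the spread between these pools.

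Post-capillary venules are where most leukocytes leave the blood. Their endothelium holds P-selectin (Selp) in storage granules and makes E-selectin (Sele) after cytokine stimulation, and both selectins let leukocytes roll. Chemokines shown on the vessel wall, and the integrin ligands ICAM-1 and VCAM-1, then stop the rolling cells. Ackr1, the atypical chemokine receptor also known as Duffy antigen, carries chemokines across venular endothelium and marks it. Genes of this kind are classical targets of the transcription factor NF-kB, many of whose DNA elements open with GGG and close with CC. The pattern searched here lets the 5 bases between be of any kind, so it also takes in sequences that are not NF-kB elements.

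Counts of Selp, Sele, Cxcl1, Ackr1 and Cytl1 were all lower in expanded skin (below), though the rule read those of Selp and Ackr1. Their promoter windows were searched, and the 3 windows that held a match are shown. Each is the 250 bases before the annotated start (RefSeq, build GRCm38.p6, plus strand), in lower case with matches to this pattern on either strand in capitals (adjoining capitals are overlapping matches).
Selp, chr1:164115014-164115263: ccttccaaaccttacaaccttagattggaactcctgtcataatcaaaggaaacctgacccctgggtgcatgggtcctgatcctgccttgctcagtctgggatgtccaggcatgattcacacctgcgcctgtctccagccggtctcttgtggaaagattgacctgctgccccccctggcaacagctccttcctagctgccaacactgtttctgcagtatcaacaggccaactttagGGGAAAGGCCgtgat
Sele, chr1:164047984-164048233: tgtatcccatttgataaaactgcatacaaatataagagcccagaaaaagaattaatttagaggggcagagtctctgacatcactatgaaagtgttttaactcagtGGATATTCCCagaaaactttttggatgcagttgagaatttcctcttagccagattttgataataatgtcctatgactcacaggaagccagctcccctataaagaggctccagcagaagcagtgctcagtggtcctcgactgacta
Cxcl1, chr5:90890995-90891244: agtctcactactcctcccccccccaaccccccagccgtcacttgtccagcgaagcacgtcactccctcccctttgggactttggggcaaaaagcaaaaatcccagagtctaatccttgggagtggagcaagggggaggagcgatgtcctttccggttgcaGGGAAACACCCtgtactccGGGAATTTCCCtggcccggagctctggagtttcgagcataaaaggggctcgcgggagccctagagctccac
The Cxcl1 window held 4 matches, which lie in 2 overlapping pairs. The Selp and Sele windows held 1 each. A match is no sign of binding, since 45.8% of the 32851 windows of this length in the same table held the pattern. The Ackr1 and Cytl1 windows held none, which says nothing about NF-kB there. Selp and Sele lie near each other on chromosome 1, on the plus strand at chr1:164115264-164150026 and chr1:164048234-164057677.

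The label was set beside the markers. Ackr1, Selp and Pecam1 were read by the rule, so their levels in members follow from it and are no check. The non-endothelial cells are those that failed the rule's endothelial gene sum, which includes Pecam1. Among members, 397 (77.5%) had both Ackr1 and Selp, 98 had Selp only and 17 Ackr1 only, with a median of 19 UMIs of the pair. Pecam1, the platelet endothelial adhesion molecule, stood at 1413 ± 218 CPM (summed UMIs of the cells of a library, scaled to a common total) in control and 1379 ± 195 in expanded members (SD, n = 5 libraries each), against 4.84 and 7.21 in non-endothelial cells. Sele, which the choice did not use, had a UMI in 86.6% of control and 74.5% of expanded members, against 2.02% and 2.12% of other blood endothelial cells and 0.163% and 0.195% of non-endothelial cells. Vcam1 was the weakest of the markers, with a UMI in 25.1% of control and 13.7% of expanded members. Its shares were 7.01% and 2.015% in other blood endothelial cells and 19.3% and 6.98% in non-endothelial cells. Ackr1 itself had a UMI in 18.9% of non-endothelial control cells and 7.455% of non-endothelial expanded cells, and Selp in 0.356% and 1.195%. At the edge of the rule, 32 members had exactly 2 UMIs of Ackr1 and Selp and 63 cells outside had 1, with median depths of 6492 and 7852 UMIs. Of these markers outside the rule, Sele thus set the members apart from both other sets. Vcam1, found in a minority of members, was more frequent in them than in other blood endothelial cells. It did not set the members apart from non-endothelial cells.

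The subsets were described by the share of cells with a UMI of other genes. Sele had a UMI in 89.2% of members with both Ackr1 and Selp, in 65.3% of those with Selp only and in 35.3% of those with Ackr1 only. Lrg1, a secreted glycoprotein of venous endothelium, followed the same order at 98.7%, 85.7% and 76.5%. Nr2f2, which encodes the venous transcription factor COUP-TFII, had a UMI in 68.8%, 43.9% and 52.9%. Vcam1 did not follow the order of Sele, at 22.7%, 16.3% and 23.5%, nor did Cytl1, at 15.9%, 6.12% and 17.6%. Their median depths were 9529, 8956 and 9769 UMIs. These are shares of cells across libraries, and the Ackr1-only subset is small.

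Members were unevenly spread over the libraries. In control skin the day 1 libraries held 36 and 121 members, those of day 2 held 17 and 36, and that of day 4 held 141. The expanded libraries held 29 and 51, 13 and 9, and 59 in the same order. Venular cells made up 24.3% (95% Wilson interval 18.1 to 31.8) and 25.5% (21.8 to 29.6) of blood endothelial cells in the control libraries of day 1. The expanded libraries of day 1 had 11.6% (8.17 to 16.1) and 10.6% (8.19 to 13.7), so both lay below both controls. On day 2 the 4 libraries lay together, at 15.3% and 13.9% in control and 15.1% and 15.3% in expanded skin. On day 4 the shares were 26.4% and 23.05%. The arm means were 21.1 ± 5.97% and 15.1 ± 4.89% (SD, n = 5), a difference of -5.95 percentage points that the exact two-sided permutation test did not separate from the spread (p = 0.0873, smallest possible 0.00794), lower in 4 of 5 pairs.

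The difference in share was larger when depth was evened out. Expanded members were deeper, with a median of 14560 UMIs per cell against 8233 in control. With every cell thinned to 2000 UMIs before the rule was applied, the difference was -10.2 points (exact permutation p = 0.0238), lower in 5 of 5 pairs. The gene used moved it little: it was -6.15 points with at least 2 UMIs of Ackr1 alone (exact permutation p = 0.0476, lower in 5 of 5 pairs) and -5.70 with at least 2 of Selp alone (exact permutation p = 0.103, lower in 4 of 5). With at least 3 UMIs of both it was -5.52 (exact permutation p = 0.143). The exact sign permutation within pairs gave p = 0.1875 for the rule as stated, 0.0625 after thinning, 0.0625 with Ackr1 alone and 0.25 with Selp alone. Its smallest possible p with 5 pairs is 0.0625, so it could not pass 0.05 and decides nothing here. Since the rule reads Ackr1 and Selp, whose levels were lower in expanded cells, fewer venular cells and less of these transcripts per cell cannot be told apart. As a share of all kept cells the members were 1.07 ± 0.570% in control and 0.885 ± 0.534% in expanded skin, with no difference beyond the spread (-0.185 points, exact permutation p = 0.627). That difference changed sign without the control library of day 4, to 0.0178 points.

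**Figure D1:**
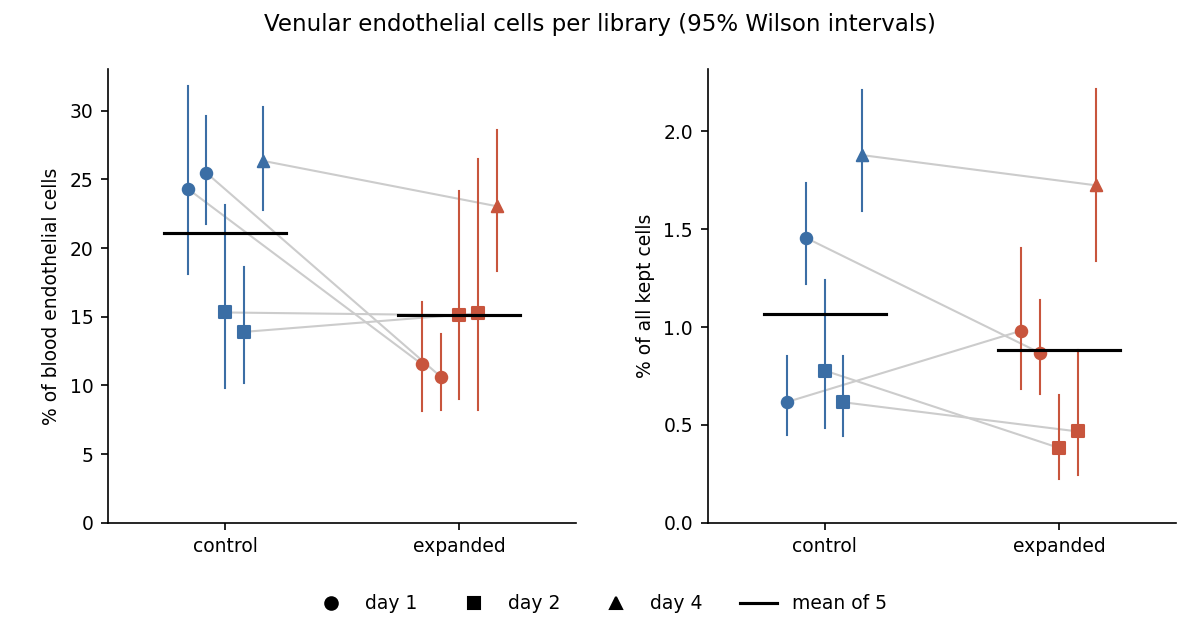
Venular endothelial cells as a percentage of blood endothelial cells (left) and of all kept cells (right) in each library, with 95% Wilson intervals that cover counting error only; grey lines join the libraries of a pair and black bars are arm means. The day 1 libraries are furthest apart in the left panel, at 24.3% and 25.5% in control against 11.6% and 10.6% in expanded skin.

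Libraries held between 17726739 and 75470722 UMIs and 1927 to 8312 kept cells. The expanded library of day 2 round 2, with 9 members, was left out of the fits for venular cells, which rest on 9 libraries, but is in every mean ± SD given. Marker levels of other cell types moved between libraries. The summed level of 10 mural markers (pericytes and smooth muscle) was 250 to 535 CPM in control and 117 to 195 in expanded members, without overlap, and that of 10 fibroblast markers was 581 to 2676 and 154 to 2421. The 10 keratinocyte markers summed to 0 to 294 in control and 19.97 to 1434 in expanded members, and the 10 myeloid markers to 415 to 1214 and 257 to 709. Of 8 neutrophil markers, Csf3r, Ly6g, Mmp9 and G0s2 were at 0 in all members. Erythroid markers summed to 14400 CPM in control members of the second round of day 2, while no expanded library exceeded 33.6. Among the other-cell markers tested that the rule did not read, the keratinocyte gene Krt14 was called higher and the fibroblast gene Col3a1 lower in expanded members. Pairs of libraries shared between 1 and 23 barcodes. The part of these in the results that follow was not tested.

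Expansion was compared with control in members summed per library (quasi-likelihood test of edgeR, adjusting for day, 5230 genes, Benjamini-Hochberg adjustment). In expanded skin 68 genes were higher (1.3% of those tested) and 107 lower (2.05%), 175 in all (3.35%). These counts leave out Ackr1, Selp and Col1a1, which chose the cells. The lower genes included the selectin gene Sele, the chemokine gene Cxcl1, Mgp and both Fabp4 and Fabp5, and the higher ones Car4, Angpt2 and Mcam. Without regard to the test, the 5 expanded libraries lay wholly above the 5 controls for 251 genes (4.8%) and wholly below for 128 (2.45%). The count of 175 depended on single libraries. It was 94, 66 and 66 without the control library of day 1 round 1, day 1 round 2 or day 4, and 56, 55 and 68 without the expanded library of day 1 round 2, day 2 round 1 or day 4. Of the 63 called genes that the rule for named genes picked, 16 were called in each leave-one-out fit that tested them, and the other 47 lost the call in at least 1. The 16 were AA467197, Car4, Ctla2b, Cxcl1, Cyp4b1, Cytl1, Fabp5, Fgl2, Gdf15, Igf1, Iigp1, Mcam, Mgp, Rbm3, Sele and Timp1, of which Gdf15 was tested in 5 of the 9 fits and the others in all 9.

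**Figure D2:**
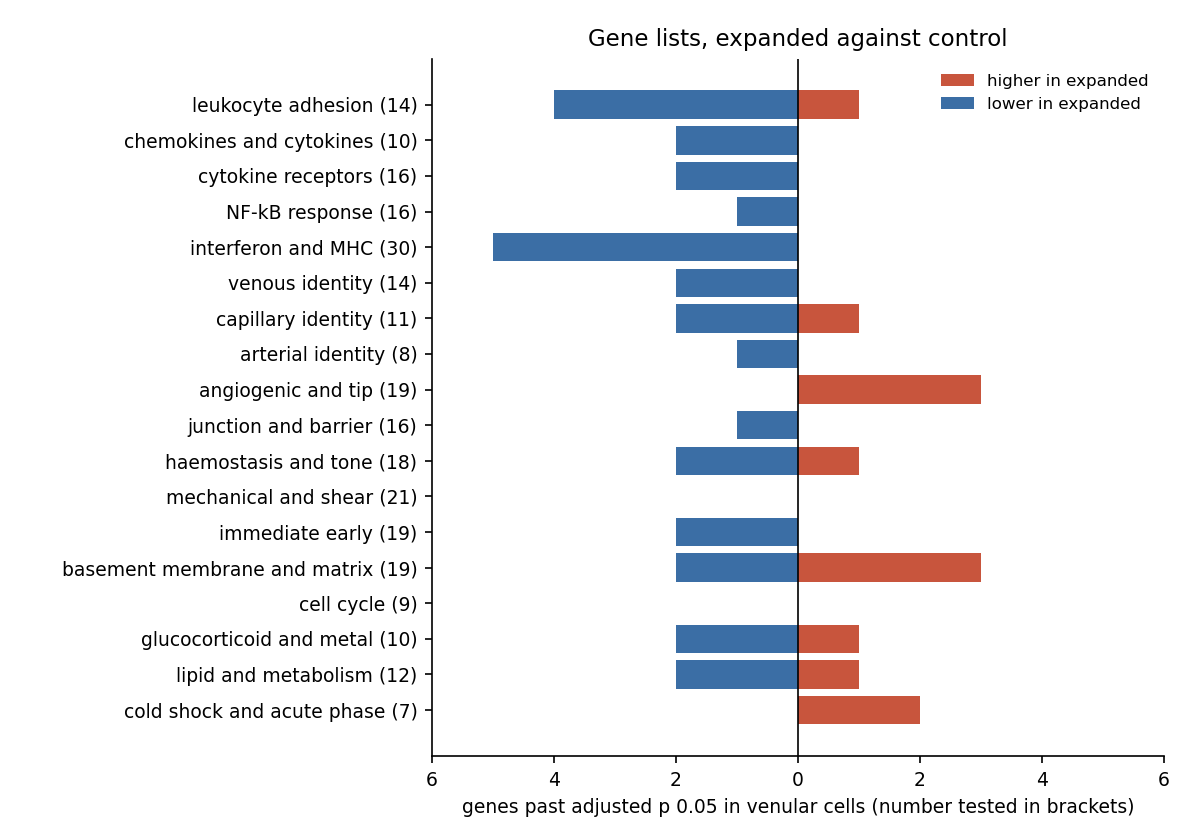
Genes of each list that passed adjusted p 0.05 in venular endothelial cells, counted to the right where higher and to the left where lower in expanded skin, with the number tested in brackets. The lists for interferon and MHC genes and for leukocyte adhesion have the most lower genes, 5 and 4, and those for angiogenic and for matrix genes the most higher genes, 3 each.

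Leukocyte adhesion genes include the selectins and their partners. Of 14 tested, 4 fell (Sele, Vcam1, Jam2 and Cytl1) and 1 rose (Mcam), where 2.05% and 1.3% of all genes did, with a median log2 fold change of -0.33 against 0.0062 over all genes tested. Sele stood at 751, 1613, 2066, 1557 and 1927 CPM in the control libraries (day 1 rounds 1 and 2, day 2 rounds 1 and 2, day 4). In the expanded libraries, in the same order, it was 477, 461, 887, 120 and 805. The expanded value was the lower in each pair, though the highest expanded library lay above the lowest control. The fitted log2 fold change of Sele was -1.30 ± 0.22 (SE; edgeR adjusted p = 0.0101).

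Vcam1 and Cytl1 were low genes that fell further. Vcam1, the ligand of the integrin VLA-4, was at 74.8, 89.0, 257, 23.6 and 116 in control and 0, 6.80, 23.5, 4.99 and 36.3 in expanded members. It fell by 2.61 ± 0.60 on the log2 scale (edgeR adjusted p = 0.0309), a call lost in 5 leave-one-out fits (adjusted p = 0.111 without the expanded library of day 1 round 2). Cytl1, a small secreted cytokine-like protein, was at 144, 249, 363, 179 and 170 in control and 31.8, 0, 0, 0 and 6.92 in expanded members. The groups did not overlap, and Cytl1 fell by 4.61 ± 0.61 (edgeR adjusted p = 0.00256). Its counts came from 18.8% of control and 3.73% of expanded members, 632 and 21 UMIs in all.

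Other adhesion genes moved less. Jam2, a junctional adhesion molecule, was at 337 ± 60.7 in control and 176 ± 32.5 in expanded members and fell by 0.88 ± 0.20 (edgeR adjusted p = 0.0312), a call lost in 6 leave-one-out fits (0.149 without the expanded library of day 4). Icam1, the most abundant of the list that did not pass, was at 785 ± 97.0 and 542 ± 52.9 (edgeR adjusted p = 0.0714). All 5 expanded libraries were below all 5 controls for Icam1. Mcam, the cell adhesion molecule CD146, went the other way: 25.9, 26.6, 6.60, 15.8 and 43.4 in control against 39.1, 100.6, 144, 125 and 130 in expanded members. It rose by 1.82 ± 0.32 (edgeR adjusted p = 0.0111), with the expanded library of day 1 round 1 within the control range. For the genes that chose the members, Ackr1 was at 1002 ± 82.0 in control and 432 ± 99.2 in expanded members and Selp at 2767 ± 585 and 1086 ± 454, given without a test.

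**Figure D3:**
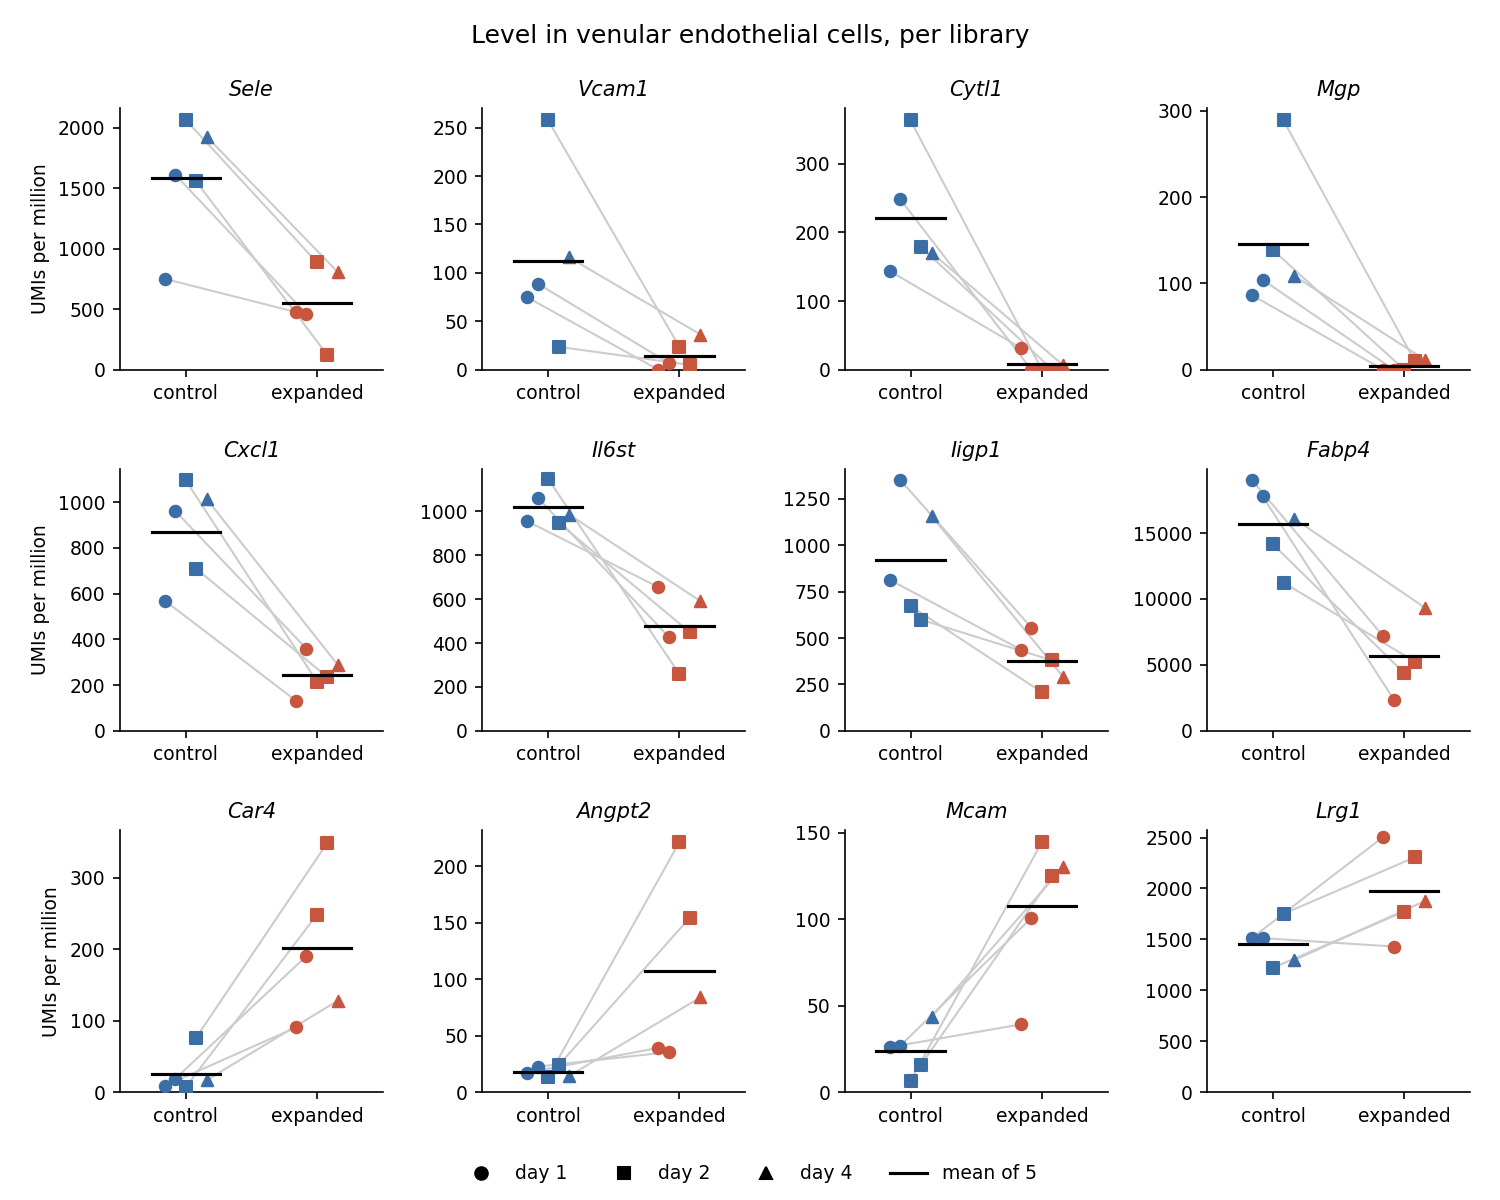
CPM of 12 genes in venular endothelial cells of each library, with grey lines joining the libraries of a pair and black bars at the mean of 5 libraries. Sele, Vcam1, Cytl1, Mgp, Cxcl1, Il6st, Iigp1 and Fabp4 were lower in the expanded library of every pair; Car4, Angpt2 and Mcam were higher in every pair; Lrg1 overlapped between arms.

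Of 10 chemokine and cytokine genes tested, 2 fell and 0 rose (2.05% and 1.3% of all genes), with a median log2 fold change of -1.05. Cxcl1, a neutrophil-attracting chemokine, was at 570, 962, 1096, 709 and 1014 in control and 132, 359, 215, 235 and 287 in expanded members. The groups did not overlap, and Cxcl1 fell by 1.88 ± 0.28 (edgeR adjusted p = 0.0072) in a call that held in every leave-one-out fit. Csf1, which sustains macrophages, fell by 0.98 ± 0.24 from 58.0 ± 9.63 to 29.3 ± 15.1 (edgeR adjusted p = 0.0389), a call lost in 8 of 9 leave-one-out fits (0.205 without the control library of day 4). Csf3, the granulocyte colony-stimulating factor G-CSF, did not pass, with 835, 1706, 766, 827 and 1461 in control and 161, 311, 561, 330 and 1490 in expanded members. The day 4 libraries were alike for Csf3, and the earlier 4 pairs were lower (edgeR adjusted p = 0.0839).

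Receptors of the IL-6 family were among the genes that fell. Of 16 cytokine receptor genes tested, Il6st and Lifr fell and none rose (2.05% and 1.3% of all genes), with a median of -0.28. Il6st, the shared signalling chain gp130, was at 956, 1063, 1148, 948 and 986 in control and 655, 427, 259, 449 and 591 in expanded members, without overlap. It fell by 1.23 ± 0.24 (edgeR adjusted p = 0.0169), a call lost without the expanded library of day 1 round 2 (0.0747) or of day 2 round 1. Lifr, the receptor chain for leukaemia inhibitory factor, fell by 1.12 ± 0.25 from 245 ± 37.8 to 107 ± 49.9 (edgeR adjusted p = 0.0291; 0.116 without the expanded library of day 2 round 1). Csf2rb, a shared receptor chain for GM-CSF, was the most abundant that did not pass, at 280 ± 37.2 and 316 ± 90.0. Of 16 genes of the NF-kB response 1 fell, the inhibitor Nfkbia, where 2.05% of all genes did. Nfkbia fell by 0.67 ± 0.16 from 3421 ± 618 to 2258 ± 339 (edgeR adjusted p = 0.0398, and 0.142 without the expanded library of day 4). Nfkbiz was at 614 ± 53.1 and 527 ± 110 (edgeR adjusted p = 0.497).

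Several interferon-induced GTPase genes fell. Of 30 interferon and MHC genes tested, 5 fell and 0 rose (2.05% and 1.3% of all genes), with a median of -0.55: the GTPases Iigp1, Irgm1, Igtp and Gbp4, which defend cells against intracellular microbes, and the MHC class I gene H2-T23. Iigp1 was at 815, 1353, 673, 599 and 1158 in control and 437, 556, 208, 379 and 293 in expanded members. The groups did not overlap, and it fell by 1.54 ± 0.21 (edgeR adjusted p = 0.0037). Irgm1 fell by 1.21 ± 0.25 (105 ± 23.6 to 42.9 ± 22.7; edgeR adjusted p = 0.02), a call lost in 5 leave-one-out fits (0.131 without the expanded library of day 4). Igtp fell by 1.40 ± 0.31 (edgeR adjusted p = 0.0272; 0.241 without the control library of day 4) and Gbp4 by 1.21 ± 0.27 (0.0272; 0.145 without the expanded library of day 4). H2-T23 fell by 0.99 ± 0.24 (edgeR adjusted p = 0.0373), and was not called with the pair as a replicate block (0.0521) or without the expanded library of day 4 (0.21). Ifitm3, a membrane protein that restricts viruses, did not pass at 3530 ± 221 and 3785 ± 945. The class II genes H2-Ab1, H2-Aa and Cd74 were not called, with log2 fold changes of -0.99, -0.88 and -0.83.

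The largest fall of a named gene was in Mgp, the matrix Gla protein that inhibits calcification. It was at 86.3, 104, 139, 289 and 109 in control and 0, 0, 0, 9.98 and 11.3 in expanded members. It fell by 4.76 ± 0.51 (edgeR adjusted p = 0.00121), with 401 control and 15 expanded UMIs from 12.0% and 1.24% of members. Gdf15, a stress-induced growth factor, fell by 4.10 ± 0.70 from 62.7 ± 49.6 to 2.29 ± 2.57 (edgeR adjusted p = 0.0101). Every expanded library was below every control for both genes. For Gdf15 this rests on counts near the floor: the lowest control library, day 2 round 1, held 1 UMI, and all expanded members together held 9.

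Fabp4 and Fabp5 both fell. Fabp4, a cytosolic fatty acid binding protein abundant in microvascular endothelium, had its lowest control library at 11240 CPM (day 2 round 2) and its highest expanded library at 9313 (day 4). It fell by 1.62 ± 0.31 (edgeR adjusted p = 0.0145), a call lost without the expanded library of day 2 round 1 (0.0605). Fabp5 was at 1488, 1169, 1003, 790 and 1002 in control and 288, 184, 255, 320 and 698 in expanded members. It fell by 1.89 ± 0.31 (edgeR adjusted p = 0.0101) and stayed below 0.05 without any 1 library. Cd36, a fatty acid transporter, was not called (768 ± 152 and 302 ± 218; edgeR adjusted p = 0.0772). Angptl4, an inhibitor of lipoprotein lipase, fell by 1.57 ± 0.27 (0.0101), and Aqp1, a water channel, by 0.95 ± 0.22 from 2808 ± 358 to 1588 ± 578 (0.0309; 0.179 without the expanded library of day 2 round 1). With mice by hashtags as replicates the log2 fold change of Aqp1 was 0.02945, that of Rasl11a 0.2136 and that of Gas6 0.2679, against falls in the libraries. The other named falls were Rasl11a by 2.21, Gm13889 by 2.10, Igf1 (an insulin-like growth factor) by 1.87, Plscr1 by 1.62 and the forkhead factor Foxc1 by 1.59. Fgl2, Cyp4b1, Gas6 and Crem fell by 2.07, 1.90, 1.64 and 1.51 and were more abundant in non-endothelial control cells than in control members.

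Genes that rose were led by Car4, carbonic anhydrase 4, an enzyme on the surface of capillary endothelium. It was at 8.63, 18.4, 6.60, 76.1 and 16.6 in control and 90.4, 190, 249, 349 and 128 in expanded members. Every expanded library lay above every control, and Car4 rose by 2.77 ± 0.34 (edgeR adjusted p = 0.0013) with a UMI in 10.3% of control and 49.7% of expanded members. AA467197 rose by 2.25 ± 0.25 from 14.6 ± 5.36 to 81.3 ± 24.8 (edgeR adjusted p = 0.00121). The inhibin subunit gene Inhbb rose by 1.76 ± 0.32 (0.0111), and Ctla2b and Ctla2a, related cysteine protease inhibitors whose reads may be shared, by 1.90 ± 0.30 and 1.24 ± 0.29. Ctla2a was not called with the pair as a replicate block (adjusted p = 0.0725) or in 7 leave-one-out fits (0.264 without the expanded library of day 2 round 1). Srm, of polyamine synthesis, rose by 1.42, Nme1, a nucleoside diphosphate kinase, by 1.26, the small nucleolar RNA host Snhg3 by 1.26, 2200002D01Rik by 1.24 and the collagen chaperone Fkbp10 by 1.18. Timp1, Mmp14, Rbm3 and S100a6 rose by 2.42, 1.84, 1.501 and 1.33 and were as abundant or more so in non-endothelial expanded cells.

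Some angiogenic genes rose. Of 19 tested, 3 rose (Angpt2, the membrane metalloproteinase gene Mmp14 and Marcksl1) and 0 fell (1.3% and 2.05% of all genes), while the list's median was -0.05. Angpt2, the Tie2 ligand angiopoietin-2 that loosens vessels, was at 17.3, 22.5, 13.2, 23.6 and 14.2 in control and 39.1, 35.3, 222, 155 and 83.9 in expanded members. The groups did not overlap, and the day 2 and day 4 libraries were the highest. Angpt2 rose by 2.07 ± 0.36 (edgeR adjusted p = 0.0111), a call lost in 3 leave-one-out fits (0.0677 without the expanded library of day 2 round 1). Marcksl1 rose by 0.98 ± 0.21 (0.0232; 0.119 without that library), but was at -0.3077 with mice by hashtags as replicates. Adamts1, the most abundant of those not called, was at 982 ± 143 and 811 ± 250.

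Matrix genes moved in both directions. Of 19 matrix genes, Timp1 (a metalloproteinase inhibitor), Lamb1 and Col4a2 rose and Mgp and Timp3 fell, with a median of 0.22. Over all genes 1.3% rose and 2.05% fell. Lamb1, a laminin chain, was at 20.1, 23.5, 19.8, 28.9 and 40.3 in control and 41.5, 50.3, 73.9, 115 and 98.7 in expanded members, without overlap. It rose by 1.18 ± 0.21 (edgeR adjusted p = 0.0111; 0.0889 without the expanded library of day 4). Col4a2, a collagen IV chain, rose by 0.80 ± 0.18 from 256 ± 62.7 to 544 ± 180 (0.03; 0.179 without that library). Timp3, of the same inhibitor family as Timp1, fell by 0.92 ± 0.20 (0.0258; 0.142 without that library). Sparc did not pass at 2064 ± 717 and 3057 ± 665.

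Among 18 genes of haemostasis and vascular tone, Ptgs1 and Procr fell, where 2.05% of all genes did. Ptgs1, cyclooxygenase-1, was at 219, 185, 185, 173 and 172 in control and 122, 78.9, 67.2, 69.9 and 95.2 in expanded members, without overlap. It fell by 1.13 ± 0.21 (edgeR adjusted p = 0.0127; 0.0664 without the expanded library of day 1 round 2). Procr, the endothelial protein C receptor, fell by 1.54 ± 0.35 from 500 ± 213 to 171 ± 73.6 (edgeR adjusted p = 0.0291). The call of Procr was lost in 6 leave-one-out fits (0.111 without that library), and its fold change turned to 0.3216 with mice by hashtags as replicates.

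Most venous identity genes were not called. The shares over all genes, to set beside each list here, were 2.05% lower and 1.3% higher. Of 14 tested, Cysltr1 (a leukotriene receptor) and Nrp2 (a VEGF co-receptor) fell, by 1.43 ± 0.30 and 0.78 ± 0.18 (edgeR adjusted p = 0.0232 and 0.0334; 0.0955 and 0.131 in the leave-one-out fit with the highest value), and 12 were not called. Nr2f2 was at 178 ± 18.9 and 96.5 ± 53.6 (0.0963), and von Willebrand factor (Vwf) at 342 ± 58.9 and 249 ± 85.5 (0.171). Plvap, the diaphragm protein of fenestrated vessels, was at 2179 ± 161 and 1974 ± 498 (0.33). Of 16 junction and barrier genes 1 fell, Cavin2, of the caveolar coat, by 1.14 ± 0.28 (0.0398; 0.0525 with the pair as a replicate block). Of 11 genes listed as capillary Car4 rose and Fabp4 and Aqp1 fell. That list was mixed between the cell sets, with 4 of 13 genes higher in members and 7 lower. Aqp1 was among the higher, and Fabp4 had a UMI in 93.2% of control members against 46.3% of other control blood endothelial cells. Of 8 arterial genes Fbln2 fell, by 1.09 ± 0.24 (0.0278, and 0.123 without the expanded library of day 2 round 1). With mice by hashtags as replicates Cavin2 was at 0.3122 and Fbln2 at 0.6475, the opposite direction.

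Few genes of the stress and growth lists were called, where 1.3% of all genes were higher and 2.05% lower. None of 21 genes of the mechanical and shear response passed (0 higher, 0 lower; 3.35% of all genes passed), with log2 fold changes of -0.19 for Klf2 and 0.07 for Ccn1, and Vim, the most abundant, at 4377 ± 844 and 5287 ± 1439. None of 9 cell cycle genes passed, and Mki67 was too low to be tested, with a UMI in 7.41% of control and 18.6% of expanded members. All 19 immediate early genes tested had a negative log2 fold change (median -0.52), but only the nuclear receptors Nr4a1 and Nr4a2 were called, by -1.48 ± 0.26 and -2.02 ± 0.43 (edgeR adjusted p = 0.0111 and 0.0215; 0.0542 and 0.088 in the leave-one-out fit with the highest value). With mice by hashtags as replicates Nr4a1 was at 0.101. The other blood endothelial cells had the same signs, with 0 of 20 immediate early genes positive (median -0.57). There 8 were called lower, where 3.81% of all genes were. The median over all genes was 0.0062 in members and 0.0045 in the other cells. Of 10 glucocorticoid and metal response genes, Fkbp5 rose by 1.05 and Cebpd and Pdk4 fell by 0.89 and 1.13. The call of Pdk4 (edgeR adjusted p = 0.0467) ended with DESeq2 (0.0848) and in 7 leave-one-out fits (up to 0.161), that of Fkbp5 in 4 (up to 0.102) and that of Cebpd in 3 (up to 0.0861). Of 12 metabolic genes Pkm, the glycolytic pyruvate kinase, rose by 0.99, and Fabp5 and Angptl4 fell. Of 7 cold shock and acute phase genes Rbm3 and Cirbp, cold-inducible RNA-binding proteins, rose. Rbm3 was at 535, 433, 363, 415 and 369 in control and 943, 1484, 1444, 1218 and 1160 in expanded members, without overlap (1.501 ± 0.183; edgeR adjusted p = 0.0013). Cirbp rose by 1.01 ± 0.25 (0.0395) and was not called with the replicate block (0.0593).

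Expanded members were deeper, so the shares of cells with a UMI were also taken with every cell thinned to 2000 UMIs (346 control and 160 expanded members reached that depth). Sele then had a UMI in 72.5% of control and 45.6% of expanded members, Fabp4 in 91.9% and 70.6%, Cxcl1 in 40.5% and 27.5% and Cytl1 in 13.9% and 2.5%. Car4 had a UMI in 2.60% and 18.1%, Mcam in 6.65% and 19.4% and Angpt2 in 3.18% and 10.0%. Icam1 had a UMI in 66.5% and 60.0%. The share of Selp was 86.7% and 70.6% and that of Ackr1 66.5% and 43.8%, as a description. Of the 63 called genes picked by that rule, 31 could be tested on thinned cells, and 20 of these were called there. The members were still chosen on their full counts here, so the depth at which they were chosen was not evened out. These values are therefore no full check for depth.

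**Figure D4:**
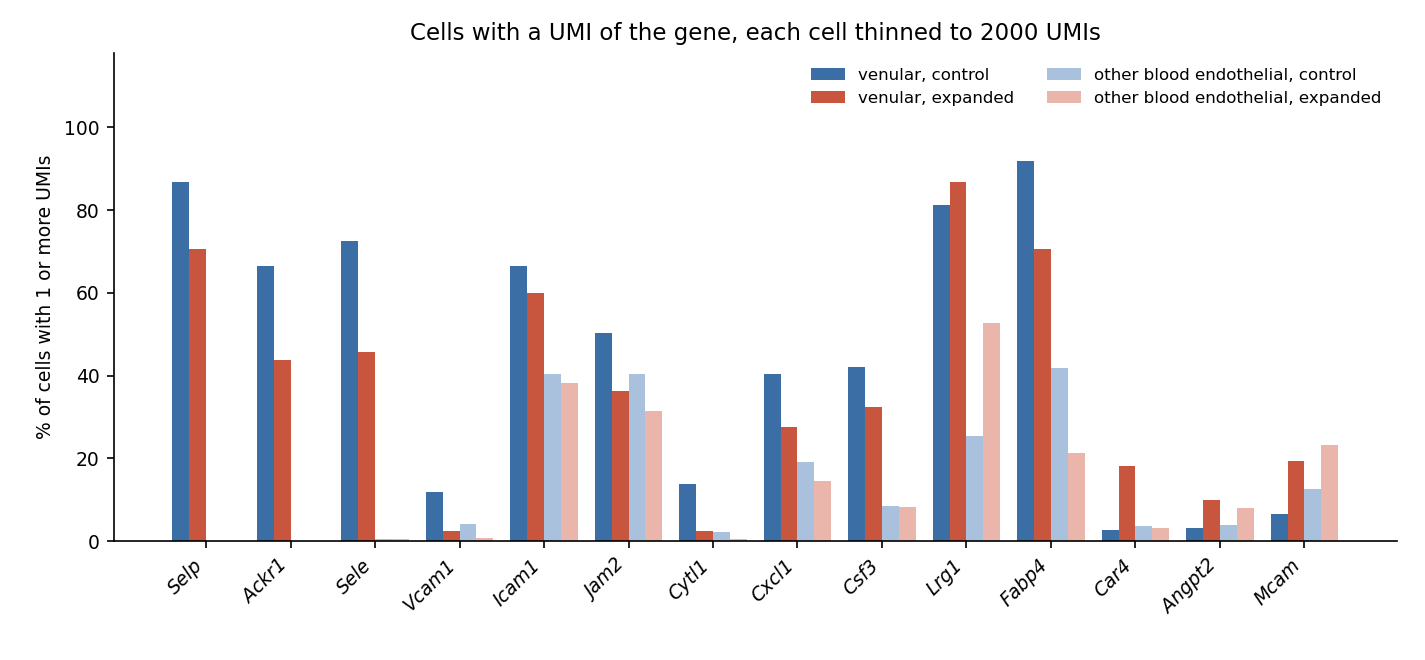
Percentage of cells with at least 1 UMI of each gene after thinning every cell to 2000 UMIs. Venular and other blood endothelial cells of both arms are shown, chosen on their full counts, with all cells of an arm pooled. Sele has a UMI in 72.5% of control and 45.6% of expanded venular cells and in under 1% of other blood endothelial cells; Ackr1 and Selp are at 0 in the latter because the choice removed them.

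The same contrast was fitted in the other blood endothelial cells, where 193 of 8849 genes were higher (2.18%) and 337 lower (3.81%), 530 in all (5.99%). Sele was at 13.2 CPM in control and 3.15 in expanded cells there, against 1583 and 550 in venular cells. Cxcl1 was at 357 ± 95.1 and 337 ± 249 in other blood endothelial cells (edgeR adjusted p = 0.581), while it fell in venular cells, but the difference between these effects was not called (-1.60, edgeR adjusted p = 0.089). Lamb1 was at 70.9 ± 16.5 and 77.5 ± 22.7 (difference of effects 1.19, adjusted p = 0.0548). Car4 was at 17.2 ± 9.06 and 42.0 ± 33.2 (difference 2.29, adjusted p = 0.089). Fabp4 (6908 ± 4346 to 2177 ± 1358), Iigp1 (1569 ± 388 to 540 ± 233) and Rbm3 (384 ± 79.0 to 1062 ± 130) were called in the same direction in both sets.

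**Figure D5:**
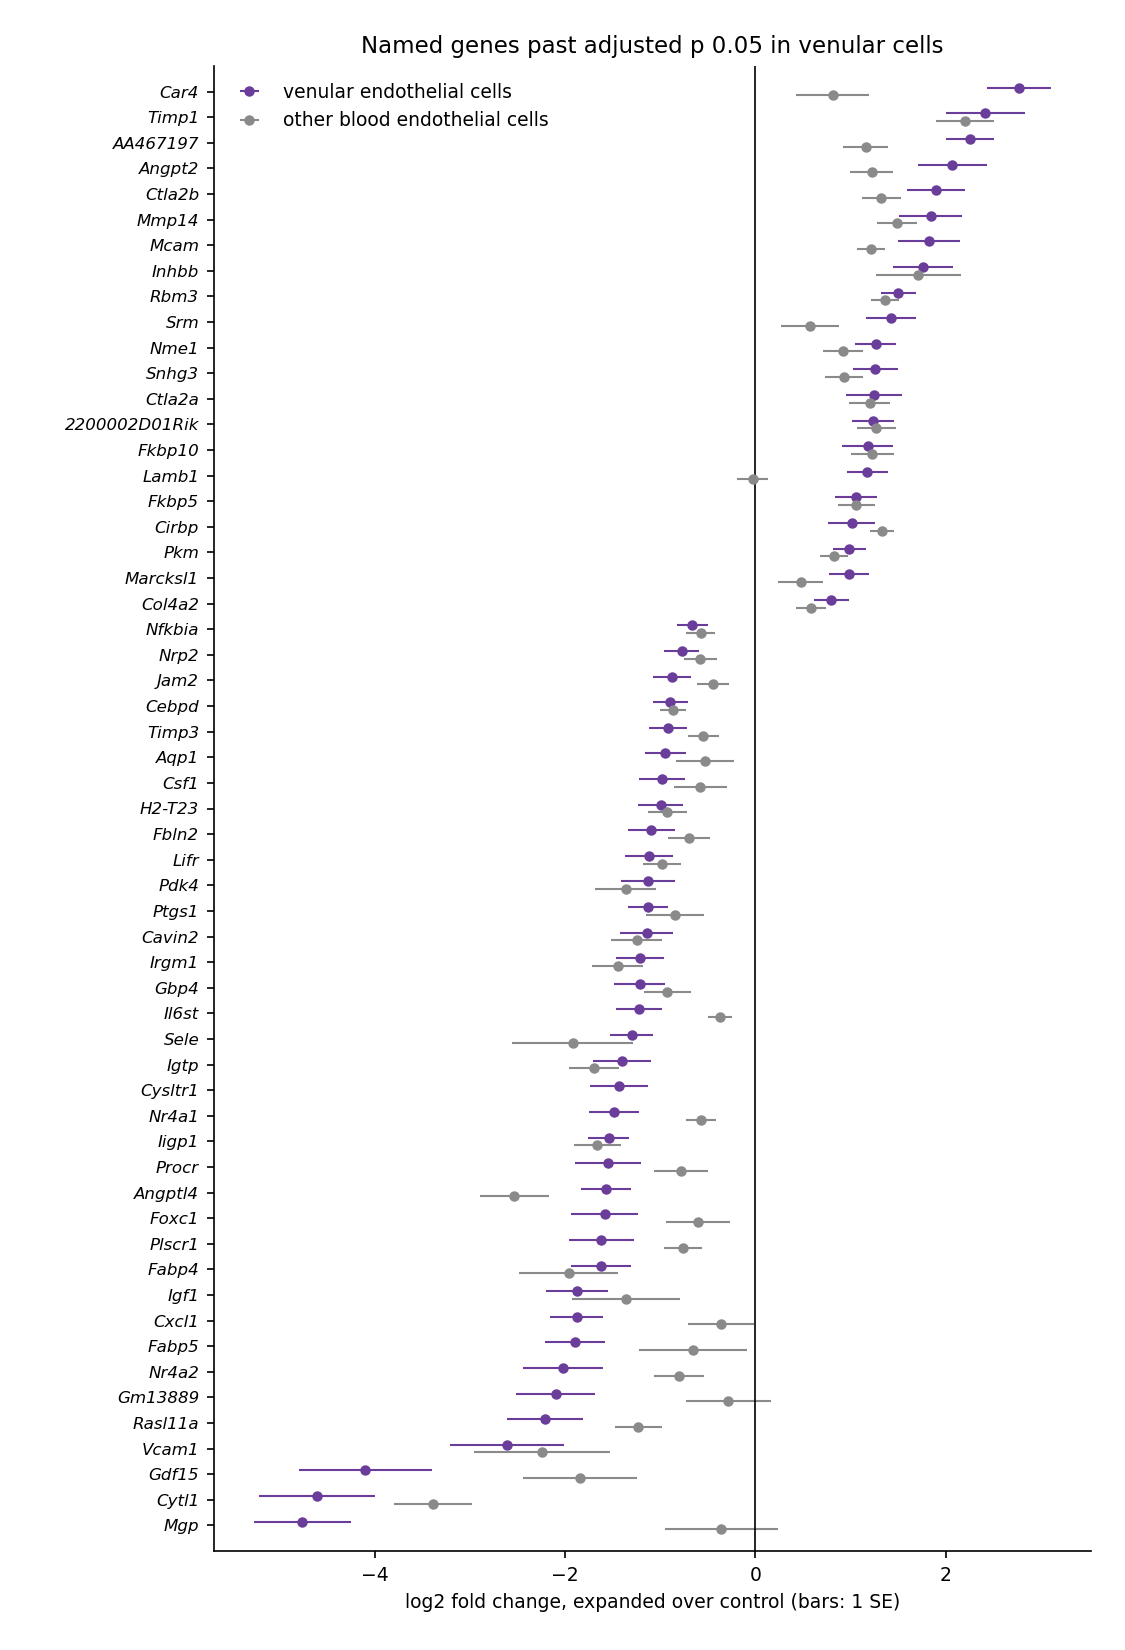
Fitted log2 fold change of expanded over control skin, with 1 standard error, for the named genes called in venular endothelial cells (purple) and the same genes in other blood endothelial cells (grey, where tested). Mgp is at -4.76 in venular and -0.36 in other cells, whereas Rbm3 is at 1.501 and 1.361.

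A test of the difference of effects, with the library as a block, called 6 of 8581 genes (0.0699%). In Mgp the other blood endothelial cells were at 198 ± 130 in control and 174 ± 109 in expanded skin, and the difference was -5.33 ± 0.71 (edgeR adjusted p = 0.00258), lower in 5 of 5 pairs. Lrg1 was high in venular cells of both arms, at 1514, 1512, 1221, 1751 and 1294 in control and 2507, 1429, 1773, 2306 and 1879 in expanded members, which did not pass (0.32 ± 0.19; adjusted p = 0.381). In the other blood endothelial cells Lrg1 rose from 193 ± 64.8 to 723 ± 151, so that the difference was -1.39 ± 0.19 (edgeR adjusted p = 0.00258) in 5 of 5 pairs. Ehd3, an endocytic recycling protein, showed the same form: 173 ± 50.9 and 147 ± 26.0 in venular cells against 9.57 ± 8.03 and 61.7 ± 27.3 in others (-2.42 ± 0.43; edgeR adjusted p = 0.0345). The calls of Mgp and Lrg1 held in each leave-one-out fit, and that of Ehd3 was lost in 6 of them (0.14 without the control library of day 1 round 2). Nr4a2, Mmp3 and Krtdap were also called but did not move the same way in all 5 pairs; they are named after their values were seen. Krtdap, a keratinocyte gene, and Mmp3 were more abundant in non-endothelial cells, at 211 and 758 CPM in the expanded arm. Without the library block none was called (374 genes at unadjusted p under 0.05; DESeq2 with the block called 19).

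Against the other blood endothelial cells of the same libraries, 873 of 8581 genes were higher in members (10.2%) and 858 lower (10%), together 20.2%. As the cells were split by Ackr1 and Selp, these values describe the members and no test is read from them. Sele was higher by 7.14 ± 0.30 on the log2 scale, at 1066 CPM against 8.16. The histamine-forming enzyme Hdc (3.88 ± 0.22), Ptgs1 (3.83 ± 0.16), Cysltr1 (3.71 ± 0.24), the lipopolysaccharide-binding protein gene Lbp (3.43 ± 0.32), Cd14 (2.76 ± 0.17) and Csf3 (2.59 ± 0.19) were higher in all 10 libraries. Fkbp11, Plekha7, Pgm5, Aqp1 and Ehd3 were also higher, by 2.58 to 3.66. Among venous genes Nr2f2 was higher by 2.58 ± 0.16. Among arterial genes the lowest were the gap junction gene Gja4 (-5.62 ± 0.35) and Sema3g (-5.34 ± 0.24). Cldn5, the tight junction claudin, was lower by 3.52 ± 0.24 and the chemokine gene Cxcl12 by 2.77 ± 0.14. Btnl9, Rsad2, Gdf15, Nes, Clic5, Sema7a, Slc6a6 and Rbp7 had differences of -3.95, -3.54, -2.89, -2.62, -2.58, -2.56, -2.55 and -2.34.

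Hashtags assigned 175 members to single mice, and 6 mice had at least 10 members: 1 expanded mouse of day 1, and 3 control and 2 expanded mice of day 4. On day 4 Sele was at 1951, 1701 and 1032 CPM in the control mice and 756 and 688 in the expanded mice. Cxcl1 was at 1613, 596 and 1509 against 219 and 126, and Car4 at 27.6, 26.3 and 7.17 against 155 and 121. The mice of each arm did not overlap for these genes, but 3 against 2 mice make this weak, and the share over all genes was not counted. These cells are also part of the libraries in which the genes were called. Other called genes did overlap: Fabp4 was at 17110, 9170 and 13660 against 15860 and 4123, and Procr at 220.6, 184.2 and 336.8 against 236.7 and 393.9. Cytl1 was at 0, 4.38 and 86.0 in the control mice and 0 in both expanded ones, and Mgp at 0, 0 and 161 and 0 in both, so 1 of the 3 control mice was high for both. A fit on the 6 mice, with the round as a factor, called 19 of 3375 genes. The day 1 mouse was alone in its round, so the arm effect rests on the 3 control and 2 expanded mice of day 4. On day 4 the mice of each arm shared 1 tube, so arm and tube cannot be told apart in this fit.

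The expansion effect was compared between day 2 and day 1. In this fit day 2 had 1 expanded library, since that of round 2 held 9 members, and the lone library is assumed to vary like the others. Of 5230 genes 1 was called (0.0191%), not counting Col1a1 and Col1a2, which the choice of cells used. It was Ccl7, a monocyte-attracting chemokine, with a difference of 6.32 ± 0.94 (edgeR adjusted p = 0.0478). Ccl7 was at 40.3 and 125 in control and 4.89 and 6.80 in expanded members on day 1, and at 6.60 and 28.9 against 114 and 25.0 on day 2. It falls outside the rule for named genes, since it was more abundant in non-endothelial cells. The effect on day 2 rests on the expanded library of round 1, whose 114 CPM stands apart from the 4.33 to 25.0 of the other expanded libraries. With all 10 libraries the adjusted p of Ccl7 was 0.241 and edgeR called 0 genes (240 at unadjusted p under 0.05). The call was also lost without the control library of day 1 round 2 and without the expanded library of day 4. With 9 libraries DESeq2 called 1 gene as well, and edgeR gave 333 genes at unadjusted p under 0.05.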

How the data were processed

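Single-cell 3′ RNA was measured in 10 libraries, with 8 hashing libraries beside them. The deposited matrices hold raw UMI counts per gene and barcode. The submitters' processing notes name Cell Ranger 6.1.2 and build mm10. Barcodes under 200 genes or 500 UMIs, or with mitochondrial genes above 10% of UMIs, were dropped. Member counts were summed per library and tested with edgeR 4.0.16 (quasi-likelihood, TMM, R 4.3.3) with day as a factor, over libraries with at least 10 members. DESeq2 1.42.0 was an alternative. Levels in CPM are summed UMIs scaled to a common library total. Doublets marked by Scrublet (scanpy 1.11.5) were kept and left out in an alternative; it marked 0.0584% to 2.97% of cells per library. Mice were assigned with HTODemux (Seurat 5.3.0, quantile 0.99). Wilson 95% intervals cover counting error only.

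The members and gene lists were chosen with earlier results of these data known. Named genes were the 12 largest changes per direction at adjusted p under 0.05 with 1 sign in all 5 pairs (in all 10 libraries between cell types), a mean of at least 50 CPM in the higher group and a level at least that of non-endothelial cells. Up to 4 that failed only the last condition were named as such, with at most 4 per direction between days. From each list, the genes that passed with the smallest adjusted p and the most abundant that did not were named. Other genes named were chosen after their values were seen. The result of 1 gene that the rule picked is not reported here. Same-pair libraries had correlated deviations of 0.202, 0.166, -0.0278 and 0.214, so the pairing was kept as an alternative. On simulated counts for 5239 genes, the test of expansion recovered 60% of changes of 1 and 91% of changes of 2 on the log2 scale.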

Additional observations from a re-analysis of the deposited data

Results flagged for a closer look

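Of 176 groups of 5 libraries screened over 86 genes, 12 had 1 library far from the other 4, and chance gives about 1 in 20. In control members Car4 was at 76.15 CPM on day 2 round 2 (others 6.6 to 18.42), and Mgp at 288.8 in the same library (others 86.34 to 138.6). Ctla2a was at 897.6 in the control library of day 2 round 1 (others 2296 to 2864), and Tuba1b at 376.2 there (others 228.4 to 262.8). Ptgs1 was at 218.7 in the control library of day 1 round 1 (others 172.1 to 185.2). In the control library of day 1 round 2, Ccl7 was at 124.8 (others 6.6 to 40.29) and Krtdap at 1.023 (others 0). In expanded members Cytl1 was at 31.76 on day 1 round 1 (others 0 to 6.923), Krtdap at 44.87 on day 1 round 2 (others 0 to 1.731) and Ccl7 at 114.2 on day 2 round 1 (others 4.327 to 24.96). Ier3 was at 1592 in the expanded library of day 2 round 2 (others 2359 to 2638), and Fabp5 at 697.5 in that of day 4 (others 183.6 to 319.5).

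Effects of expansion that differed between venular and other blood endothelial cells were those of Mgp (-5.334), Lrg1 (-1.387), Ehd3 (-2.422), Nr4a2 (-1.359), Mmp3 (3.796) and Krtdap (6.025), as differences of log2 fold changes. Between days 2 and 1 the effect on Ccl7 differed by 6.318.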

How the results depend on the processing

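The count of 175 genes changed with expansion in venular cells was 594 with no filter on low counts, 32 with thinned cells (1210 genes tested), 13 with the choice on Ackr1 alone (8 libraries), 281 with all 10 libraries, 38 with all 10 thinned and 19 with mice by hashtags; with the replicate block, which pairs libraries of a day and round, it was 225, and leaving out 1 library gave 55 to 226. In other blood endothelial cells the count of 530 became 1040 with no filter and 236 thinned, and 152 to 583 without 1 library. Between the cell sets 1731 became 716 thinned. The 6 differences of effects became 19 (DESeq2), 132 (no filter), 11 (thinned), 16 (without called doublets), 17 (at least 3 UMIs of Ackr1 and Selp), 15 (all 10 libraries), 10 (all 10 thinned) and 3 to 18 without 1 library; with edgeR they were 0 with no replicate block (374 at unadjusted p under 0.05) and 0 with Ackr1 alone (440). The 1 day difference became 52 with no filter and 0 to 15 without 1 library, and with edgeR 0 thinned (80 unadjusted), 0 at 3 UMIs (318) and 0 with all 10 libraries (240); it could not be fitted with Ackr1 alone or without the expanded library of day 2 round 1. The share of blood endothelial cells differed by -6.15 points with Ackr1 alone and -10.2 after thinning, and by -4.63 to -7.93 without 1 library; the share of all kept cells by -0.394 to 0.0178. The cause of these changes was not tested.

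Of the 63 called genes picked by the rule for named genes, 55 kept their direction in all alternatives that tested them, 12 to 20 per gene. The other 8 reversed, all with mice by hashtags: Rasl11a 0.2136, Gas6 0.2679, Aqp1 0.02945, Fbln2 0.6475, Marcksl1 -0.3077, Cavin2 0.3122, Procr 0.3216 and Nr4a1 0.101. That fit, whose arm effect rests on the mice of day 4, did not test some of the 55, among them AA467197, Angpt2, Crem, Csf1, Cyp4b1, Cytl1, Foxc1, Gdf15, Inhbb and Mgp. Genes not called that reversed with mice were Icam1 0.002549, Csf3 0.07185, Csf2rb -0.09375, Ifitm3 -0.2277, Plvap 0.283, Cd36 0.1027, Fbln5 0.527 and Tuba1b -0.7132. Thinned, Csf2rb was at -0.07872 and Tuba1b at -0.0486. For Plvap, expansion in venular cells gave 0.0002569 with all 10 thinned. For Ifitm3, expansion in venular cells gave -0.00238 with Ackr1 alone and -0.04516 with at least 20 members per library. Without 1 library Csf2rb ranged from -0.08103 to 0.2812, Ifitm3 from -0.05268 to 0.2611 and Tuba1b from -0.04803 to 0.366. Of these 63 the block ended 5 calls; those reported are given beside the results.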
